A study of Arabidopsis thaliana with 8 samples.

Results

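Plates TA52 to TA63 of a chromosome 4 tiling array carried 1141 measured tiles, of 21285 in all, on which dimethylation of histone H3 at lysine 4 (H3K4me2) was measured by chromatin immunoprecipitation (ChIP). The tiles were chosen by plate name: every well on these 12 plates that held a value in all 4 replicates. The plates were picked out because earlier results of the same measurements placed them between a low block that ends at TA51 and higher plates from TA64 on. The levels below are therefore a description of these plates, with no test of them against the others.

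H3K4me2 is a mark laid on the tail of histone H3, which in plants marks genes far more than silent chromatin rich in repeats. In Arabidopsis thaliana such silent chromatin is gathered around the centromeres and, on chromosome 4, also in a knob on the short arm, and its borders with gene-rich chromatin can hold genes and transposons side by side. The tile names give a plate and a well, with no gene and no position, so none of the tiles is placed on the chromosome here.

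There was 1 group. It held whole seedlings of the accession Col-0, 10 days old, grown in liquid medium with no treatment, and each of the 4 replicates set immunoprecipitated (IP) against input DNA from 50 µg of chromatin in a dye swap of 2 arrays. Both arrays of a swap held identical values, so a replicate counts once and n = 4 throughout. Values are log2 ratios after subtraction of each replicate's median over the 21285 tiles, called the median tile below. The base of the logarithm was inferred from the values, and the sources used here do not say which channel was divided by which, so a level is described only as above or below the median tile in the deposited sign. The labels ascribe the IP chromatin of replicates 2, 3 and 4 to a single batch of seedlings, and the replicates may thus be partly technical. Whole seedlings mix many cell types, and a level is a mean over them.

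The stretch as a whole lay below the median tile. Its median was -0.94, -0.85, -1.03 and -0.87 in replicates 1 to 4, a mean of -0.92 ± 0.08 (SD, n = 4), and the quartiles of the tile means were -1.80 and -0.07. The single tiles spread far to both sides, between -4.08 at TA58A10 and 3.07 at TA52E03, a wide mixture rather than a uniformly low level. In limma, at an adjusted p under 0.05 over the whole array, 194 tiles of the stretch were called above the median tile, where 42.1% of all tiles of the array were, and 793 were called below it, where 41.9% of all tiles were. With the values as deposited, not centred, the counts in the stretch were 89 above and 892 below 0. Over the array they were then 4108 above and 11245 below, of 21285 tiles. The counts in the stretch come from the values that singled out the plates, and nothing further is read from them.

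A stricter description needs no test. A tile is called high here when it lay at least 1 above the median tile on the log2 scale (2-fold) in all 4 replicates, and low when it lay at least 1 below in all 4. There were 74 high tiles in the stretch (14.9% of the tiles of the whole array were high) and 449 low tiles (21.1% of the array), and 618 were neither. With 0 set at the median tile, high and low tiles both occurred on each of the 12 plates. This depends on where 0 is set. As deposited, only 10 tiles of the stretch were high, fewer than its 12 plates. TA57 was among the plates with no high tile, since its highest, TA57H04, had a mean of 0.57. As shares of the stretch, 6.49% of the tiles were high and 39.4% low. The sign itself was the same in all 4 replicates for 801 tiles below and 198 above the median tile, and differed among replicates for 142. Of the 20144 tiles outside the stretch, 8387 lay below and 8965 above in all 4 replicates. The sign differed for 12.4% of the tiles of the stretch and 13.9% of those outside it.

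**Figure D1:**
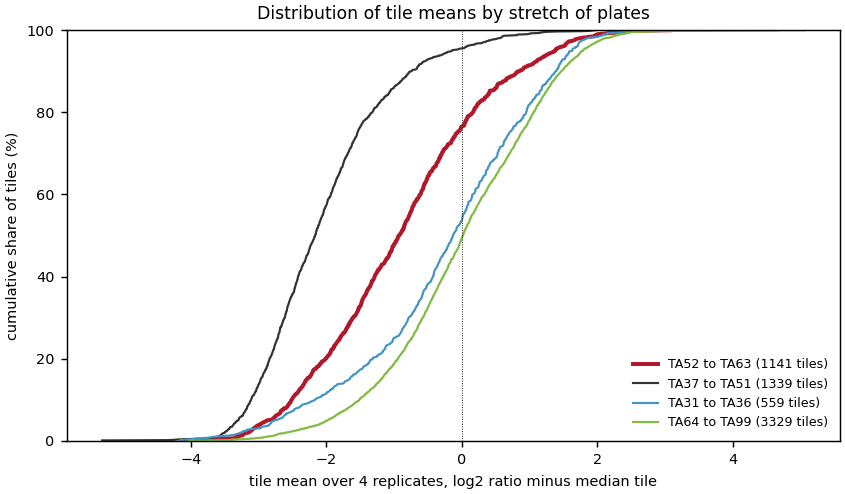
Cumulative share of tiles (vertical axis, %) against the mean log2 ratio of a tile over 4 replicates (horizontal axis), for plates TA52 to TA63 and for 3 other stretches of TA plates. The curve of TA52 to TA63 lies between that of TA37 to TA51 and those of TA31 to TA36 and TA64 to TA99 over most of its range.

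The level stood between those of its neighbours on the 2 sides. The median of the stretch, -0.92 ± 0.08, compares with -2.18 ± 0.39 on TA37 to TA51 and with 0.01 ± 0.01 on TA64 to TA99 (SD, n = 4 each). The difference to TA37 to TA51 was 1.55, 0.98, 1.52 and 0.99 in replicates 1 to 4, and that to TA64 to TA99 was -0.93, -0.87, -1.04 and -0.90, so each kept its sign in all 4 replicates. The stretch also lay 0.80 ± 0.07 below TA31 to TA36, the plates that separate 2 low blocks earlier in the set, which had a median of -0.12 ± 0.03. Low tiles made up 39.4% of the stretch, 78.2% of TA37 to TA51, 20.8% of TA31 to TA36 and 13.9% of TA64 to TA99. High tiles made up 6.49%, 0.373%, 13.1% and 14.6% of the same 4 stretches. The middle 50% of tile means spanned 1.73 in the stretch, against 1.18 on TA37 to TA51, 1.69 on TA31 to TA36, 1.62 on TA64 to TA99 and 1.92 over all tiles outside the stretch. All of these comparisons use the measure that chose the plates and are given without a test.

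The level did not climb evenly between TA51 and TA64. Plate TA51, just outside, had medians of -2.43, -1.80, -2.61 and -1.73, and plate TA52 had -0.74, -0.61, -0.78 and -0.62, a step of 1.46 ± 0.35. After that the plate medians went down and up again. TA53 lay at -1.19 ± 0.14, TA54 at -0.94 ± 0.05, TA55 at -0.92 ± 0.12 and TA56 at -0.47 ± 0.08. TA57 was the lowest plate, at -1.95, -1.59, -2.08 and -1.61, with 69 low tiles and 1 high tile among 96. TA58 and TA59 followed at -1.32 ± 0.10 and -1.09 ± 0.08, TA60 at -0.47 ± 0.11, and TA61 was the highest plate at -0.14, -0.31, -0.17 and -0.33, with 15 high tiles, the most of the 12 plates, and 12 low ones. TA62 and TA63 lay lower again, at -1.19 ± 0.41 and -1.30 ± 0.20. TA64, the first plate beyond, had -0.25, -0.21, -0.29 and -0.12.

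Of the 13 steps between consecutive plates from TA51 to TA64, 8 were upward and 3 downward in all 4 replicates. The steps to TA55 and to TA63 had both signs among the replicates. The downward steps led to TA53 (-0.51 ± 0.10), TA57 (-1.34 ± 0.18) and TA62 (-0.95 ± 0.51). All 12 plate medians were below 0 in each replicate, and those of 5 plates, TA53, TA57, TA58, TA59 and TA63, were below -1 in each. TA64 exceeded TA51 by 1.93 ± 0.38, by 2.19, 1.59, 2.32 and 1.62 in replicates 1 to 4, and the first step, to TA52, and the last, of 1.09 ± 0.17, together were larger than this difference.

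**Figure D2:**
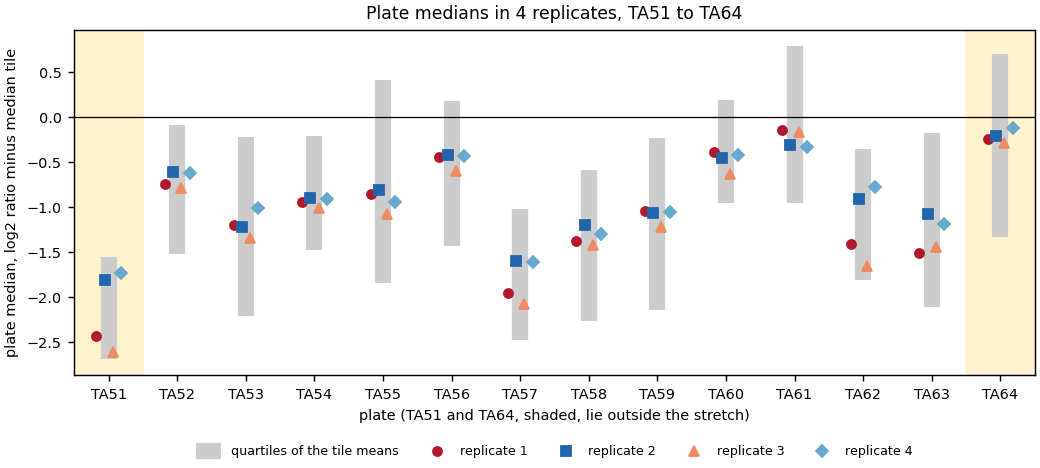
Plate median of the log2 ratio minus the median tile (vertical axis) for plates TA51 to TA64 in order (horizontal axis), 1 symbol per replicate, with grey bars for the quartiles of the tile means. The medians lie between -2.08 at TA57 and -0.14 at TA61 inside the stretch, and the symbols of TA62 fall apart into 2 pairs.

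The edges of the stretch do not show as steps at the plate borders. The last tile of TA51, TA51H12, had -2.79, -1.0, -2.51 and -1.08, and the first of TA52, TA52A01, had -2.53, -1.06, -2.35 and -0.92. At the far edge TA63H12 had -1.05, -0.89, -0.36 and -0.94, and TA64A01 had -1.64, -0.90, -1.85 and -0.37. In both places the ranges of the 2 neighbouring tiles overlapped.

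Levels changed within plates instead. The wells of TA51 to TA64, in the order plate, row and column, were divided into segments of at least 5 tiles by the partition with the least squared error under a fixed penalty. This gave 40 segments that touch TA52 to TA63, with lengths from 6 to 117 tiles and a median of 20.5. Of these, 29 had a mean below the median tile and 11 above. Only 1 of the 40 began at the first well of a plate, TA54A01. The number depends on the penalty, with 77 segments at 0.5 times the penalty and 21 at 2 times. When each replicate was segmented alone, 22 of the 40 starting points were found again within 3 wells in all 4 replicates, 4 in 3 replicates and 14 in fewer.

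The low level of TA51 reached into TA52: a segment from TA51D11 to TA52B05 had a mean of -1.84 ± 0.28 over 67 tiles, and was followed by TA52B06 to TA52D11 at -0.76 ± 0.16. The start of this second segment was found in none of the 4 replicates alone. Farther on, 4 segments had a mean at least 1 above the median tile. They ran from TA53F07 to TA53G04 (1.44 ± 0.05, 10 tiles), TA54B10 to TA54C03 (1.39 ± 0.06, 6 tiles), TA56F04 to TA56F12 (1.40 ± 0.24, 9 tiles) and TA61B10 to TA61C04 (1.54 ± 0.24, 7 tiles). The first 3 had starting points found in all 4 replicates, the last in 2. These are short islands: together with the 7 other segments above 0 they held 136 tiles, some of them on TA64.

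The 5 segments of the stretch with a mean below -2 lay on TA53, TA57, TA58 and TA59. TA59G01 to TA59G11 had -3.48, -2.41, -3.46 and -2.59 over 11 tiles, all of them low, and TA59C05 to TA59C10 had -2.95, -2.38, -3.02 and -2.49 over 6 tiles, also all low. TA58G08 to TA58H07 lay at -2.41 ± 0.25 with 11 low tiles of 12, TA53G05 to TA53H12 at -2.27 ± 0.22 with 18 of 20, and TA57C11 to TA57G10 at -2.14 ± 0.31 with 43 of 48. The starting points of TA59G01 to TA59G11 and TA57C11 to TA57G10 were found in 2 of the 4 replicates, the others in all 4. The largest contrast of adjoining segments was on TA53, where the island ending at TA53G04 gave way to the segment starting at TA53G05, a step of -3.72 between the segment means. On TA56 the island ending at TA56F12 was followed at TA56G01 by a segment that reached TA57B06, a step of -3.38. The longest segment was TA59H11 to TA61B09, at -0.26 ± 0.08 over 117 tiles, with 11 high and 14 low tiles.

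**Figure D3:**
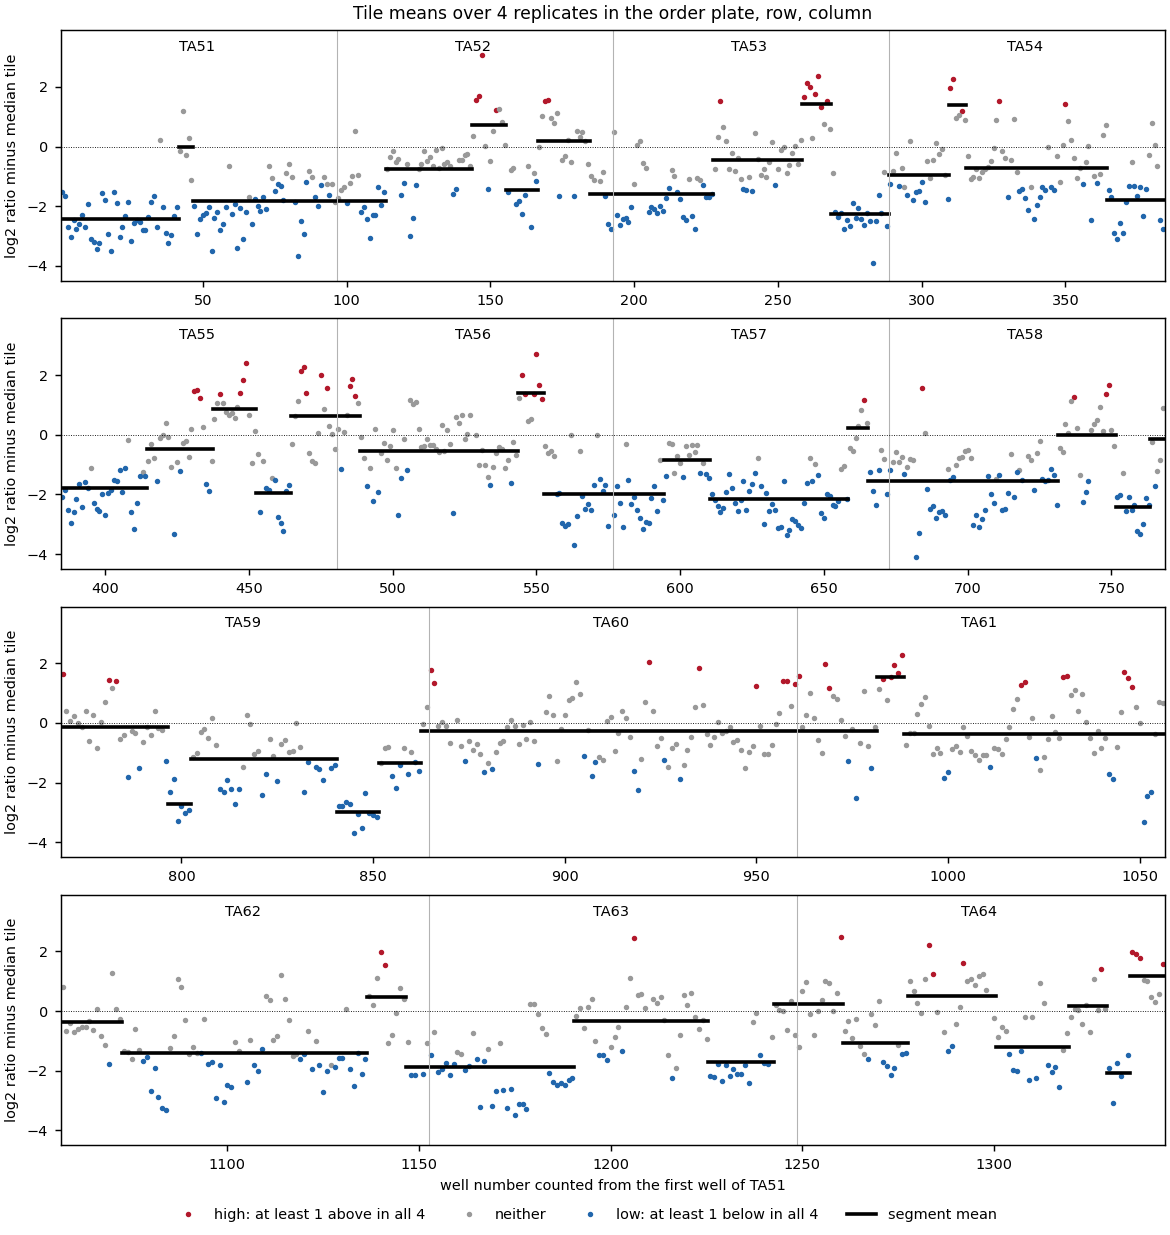
Mean log2 ratio minus the median tile over 4 replicates (vertical axis) for every measured tile of TA51 to TA64, in the order plate, row, column (horizontal axis, well number), coloured as high, low or neither, with a black line for each segment mean. Short high islands on TA53, TA54, TA56 and TA61, with segment means of 1.39 to 1.54, stand beside segments down to -2.98.

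High and low tiles alternated along the wells. Passing over tiles that were neither, the sequence changed 26 times from low to high and 26 times from high to low. TA61 had the most changes on a plate, 9, and TA59 the fewest, 1. The high tiles formed 41 runs of consecutive measured tiles, of which 20 were single tiles and 10 held at least 3. The low tiles formed 136 runs, 51 with at least 3 tiles and 25 with at least 6. Runs of high tiles had a mean length of 1.80 tiles and runs of low ones 3.30. The stretch holds more low than high tiles, so the 2 lengths do not compare like with like. Per 100 tiles there were 4.56 changes, close to the 4.45 over all tiles outside the stretch. The rate was 0.597 on TA37 to TA51, which held only 5 high tiles, 4.65 on TA31 to TA36 and 6.46 on TA64 to TA99. It too depends on how many high and low tiles a stretch holds.

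The longest high runs held 4 tiles. TA56F09 to TA56F12 had means of 1.47, 1.96, 1.68 and 1.86 in replicates 1 to 4, and contained TA56F10, the highest tile of its plate, at 2.35, 3.14, 2.36 and 2.97. TA61C01 to TA61C04 had 1.46, 2.32, 1.59 and 2.03, and ended with TA61C04 at 1.98, 2.62, 2.14 and 2.33. In both runs replicates 1 and 3 were the lower ones. The highest tile of the stretch, TA52E03, had 2.97, 3.21, 2.89 and 3.22, which is 8.42-fold above the median tile, and closed a run of 3 high tiles that began at TA52E01. Its next neighbour, TA52E04, had 0.26, -0.43, 0.29 and 0.01. The replicates of TA52E03 all lay above every replicate of TA52E04.

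The longest low runs held 18 tiles each. TA57C09 to TA57E02 had means of -1.93, -1.94, -2.11 and -1.87, within 0.24 of each other. Its end tiles TA57C09 and TA57E02 had means of -1.32 ± 0.18 and -1.29 ± 0.19. TA59F04 to TA59G11 was lower and less even, at -2.75, -2.11, -2.75 and -2.25. Runs of 17 low tiles lay from TA53G06 to TA53H10, at -2.58, -2.27, -2.65 and -2.15, and from TA57E04 to TA57F08, at -3.14, -2.01, -3.10 and -2.13.

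The extreme tiles of each plate were set apart from the median tile in every replicate. The highest tile per plate ranged between 1.17 on TA57 and 3.07 on TA52. On TA53 it was TA53F12, at 2.36, 2.39, 2.37 and 2.34, the tile with the smallest SD of the stretch (0.02). TA54B11 had 2.26 ± 0.11, TA55F05 2.40 ± 0.32, TA57H04 1.17 ± 0.10, TA58G05 1.67 ± 0.24, TA59A01 1.64 ± 0.05, TA60E10 2.05 ± 0.16, TA62G12 1.96 ± 0.17 and TA63E06 2.46 ± 0.31. The lowest tile per plate ranged between -4.08 on TA58 and -2.24 on TA60. TA53H07 had -3.89 ± 0.20, TA54G08 -3.08 ± 0.12, TA55D04 -3.34 ± 0.18, TA61H07 -3.33 ± 0.20 and TA63B11 -3.49 ± 0.06. TA52A12 (-3.05 ± 0.50), TA56G11 (-3.70 ± 0.51), TA57F01 (-3.35 ± 0.55), TA59G05 (-3.70 ± 0.67), TA60E07 (-2.24 ± 0.31) and TA62C04 (-3.33 ± 0.72) had a wider spread, and in each of these 6 tiles replicates 1 and 3 were the lower ones.

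Some neighbouring wells differed sharply. The largest step of the stretch was between TA58A11, at -3.56, -3.01, -3.46 and -3.10, and TA58A12, at 1.29, 1.78, 1.38 and 1.80. The step was 4.86, 4.79, 4.83 and 4.91, or 4.85 ± 0.05. The lowest tile of the stretch, TA58A10, stood just before, at -3.83, -4.25, -4.02 and -4.23, and before it TA58A09 had a mean of -0.86 ± 0.23. These 2 very low tiles thus stood between a moderately low tile and a high one. The next largest upward step led from TA54B09, with a mean of -1.77, to TA54B10, with 1.97, a step of 3.74 ± 0.11. The largest downward step led from TA56G10, with a mean of -0.02, to TA56G11, by -3.67 ± 0.64. Of 1140 neighbouring pairs, 43 differed by more than 2, of which 22 were upward and 21 downward. The median size of a step was 0.55, against 0.55 on TA37 to TA51 and 0.59 on TA64 to TA99.

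**Figure D4:**
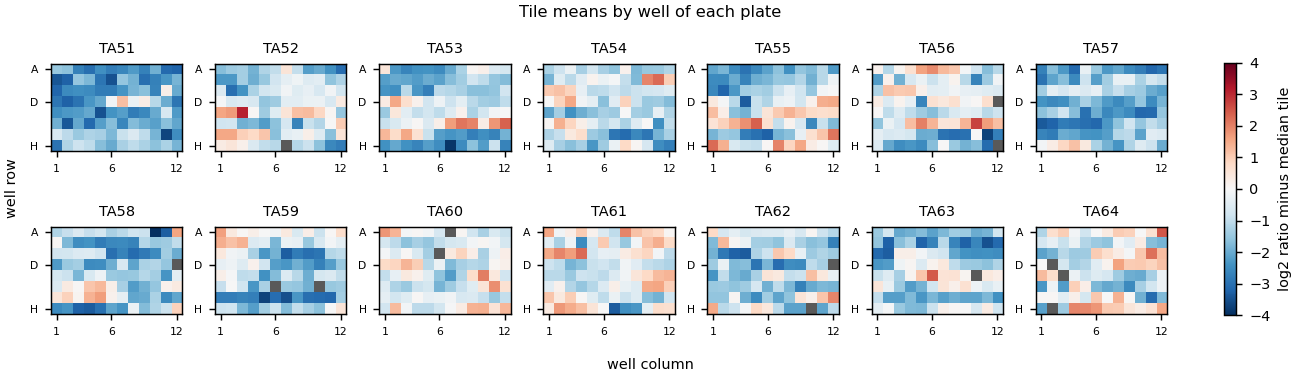
Mean log2 ratio minus the median tile over 4 replicates, as colour, for each well (rows A to H, columns 1 to 12) of plates TA51 to TA64; dark grey wells held no value. Red and blue patches run along the rows, as on TA53 rows F to H, and TA57 is blue over most of its wells.

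Similarity between tiles followed the rows. Counted along the rows, the correlation of tile means across wells 1 apart was 0.72 in the stretch, 0.41 at 3 wells, 0.23 at 6, 0.13 at 12 and 0.00 at 96, over 1036 to 1129 pairs of tiles from the same arrays. Counted down the columns it was 0.11 at 1 well. Along the rows the value at 1 well was 0.54 on TA37 to TA51, 0.74 on TA31 to TA36 and 0.63 on TA64 to TA99. Across the 12 plate borders with both tiles measured, the step had a median size of 0.66, against 0.55 over all neighbouring tiles of the stretch, and a largest size of 3.25, between TA52H12 (-2.75) and TA53A01 (0.50).

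The median over the 12 plates differed by row of the plate, between -1.44 ± 0.19 in row G, with 75 low tiles of 144, and -0.66 ± 0.04 in row F, with 19 high and 42 low tiles of 142. Rows G and B, at -1.23 ± 0.17, were the lowest. By column the medians spanned -1.18 ± 0.07 in column 6 to -0.68 ± 0.05 in column 2. A row letter pools 12 separate stretches of neighbouring wells, 1 per plate, so these medians rest on few independent stretches.

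The 4 replicates fell into 2 pairs, in the stretch as over the whole array: both of replicates 1 and 3 lay on the same side of both 2 and 4 for 69.7% of the tiles of the stretch and 70.4% of all tiles. Correlations across the 1141 tiles of the stretch were 0.984 for replicates 1 and 3 and 0.986 for 2 and 4. The 4 remaining pairs had values of 0.916 to 0.927. The sample titles carry 2 numbers each, and what these stand for is not stated there. By the second number the pairs would be 1 with 2 and 3 with 4. The pairs are described here as seen in these values and no test is made of them. Replicates 1 and 3 were both lower than 2 and 4 by more than 0.5 for 222 tiles of the stretch, where 12.7% of all tiles of the array were, and both higher by more than 0.5 for 27 tiles, where 3.75% of the array were. As shares of the stretch these were 19.5% and 2.37%. With the replicates divided by that title number, 0 tiles of the stretch had such a gap in either direction.

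The lower values of replicates 1 and 3 were concentrated on some plates and levels. TA62 had 50 such tiles of 94, the most of the 12 plates, and the other plates of the stretch had between 7 and 23. TA51, just outside, had 51 of 96. The median SD of a tile over replicates was 0.45 on TA62, and between 0.18 and 0.26 on the 11 other plates of the stretch. TA62 ranked 11 among the 231 plates of the array by this value. By level, 41.05% of the 229 tiles with a mean below -2 showed the gap, 20.5% of the 317 tiles between -2 and -1, and 11.6% of the 327 between -1 and 0. The share was 9.41% of 170 tiles between 0 and 1 and 9.18% of 98 above 1. A level is the mean over the same replicates, so low values in replicates 1 and 3 also lower it. The shares by level are therefore partly set by the gap itself.

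The gap came and went inside plates. Along TA61G01 to TA62A10 the 4 replicates averaged -0.23, -0.30, -0.37 and -0.32 over 34 tiles. In the next 61 tiles, TA62A11 to TA62F12, they averaged -1.65, -0.92, -1.81 and -0.79, with the gap at 44 tiles, and in TA62G01 to TA62H12 they came closer again, at -0.78, -0.67, -0.90 and -0.54 over 23 tiles. Both replicates 1 and 3 averaged lower than both 2 and 4 by a little in that last window, and by more in the middle window. TA57 held a shorter window of the same kind, TA57E05 to TA57G07, at -2.76, -1.90, -2.78 and -1.98 over 27 tiles, after -1.70, -1.61, -1.86 and -1.62 in TA57A01 to TA57E04 and before -0.74, -0.77, -0.81 and -0.68 in TA57G08 to TA57H12. At the near edge of the stretch the gap crossed from one plate to the next, with -2.24, -0.90, -2.10 and -0.94 over the 8 tiles TA51H10 to TA52A05. These windows were chosen after their values were seen.

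On TA61 the gap turned round between one plate row and the next. TA61E01 to TA61E08 had means of -1.26, -0.49, -1.25 and -0.55 over 8 tiles, with replicates 1 and 3 lower. The 4 tiles TA61F04 to TA61F07 had -0.01, -1.22, -0.12 and -1.65, with replicates 1 and 3 higher. TA61F06, in this run, had 0.36, -1.0, -0.04 and -1.46. It was the only run of at least 4 tiles from TA51 to TA64 with the gap in that direction, against 20 runs with replicates 1 and 3 lower. The tile with the largest SD of the stretch, TA63F05, had -2.79, -0.86, -2.91 and -1.01, an SD of 1.11, and ended a run of 4 tiles with replicates 1 and 3 lower.

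**Figure D5:**
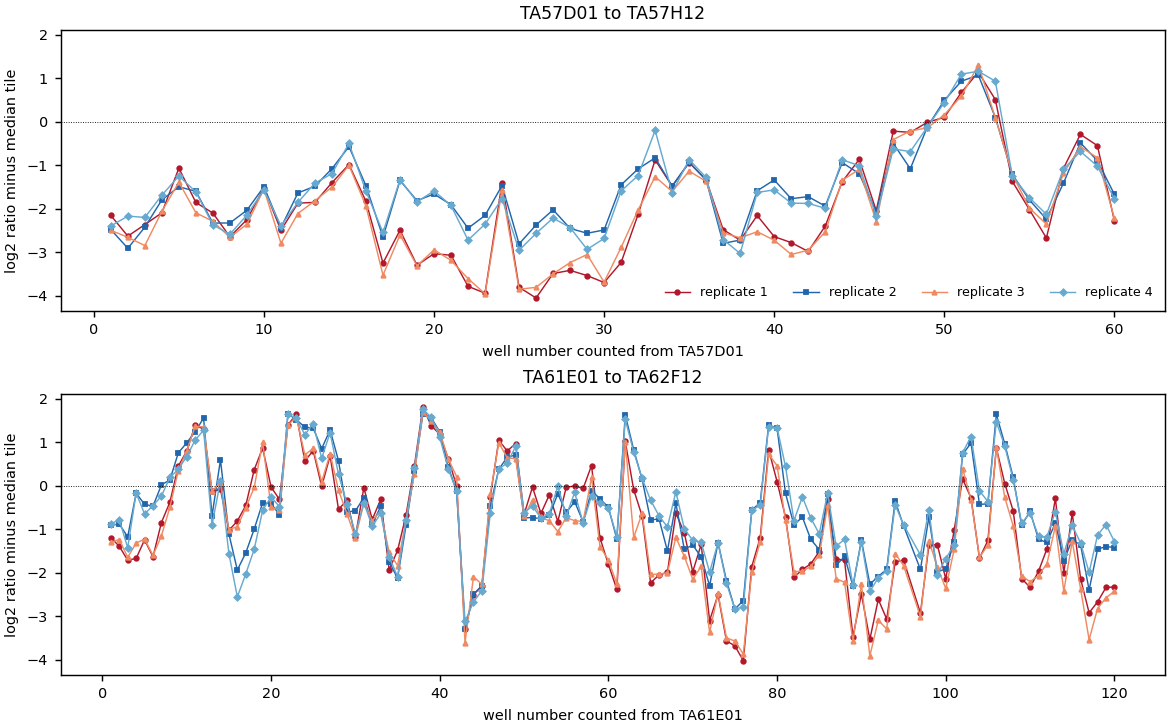
Log2 ratio minus the median tile (vertical axis) in each of 4 replicates along the wells TA57D01 to TA57H12 (top) and TA61E01 to TA62F12 (bottom), well number on the horizontal axis. The replicates share the positions of most peaks and troughs, while replicates 1 and 3 lie below 2 and 4 over most of TA57E05 to TA57G07 and TA62A11 to TA62F12, and above them over TA61F04 to TA61F07.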

How the data were processed

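H3K4me2 ChIP and input DNA of 4 replicates of Col-0 seedlings were compared on 8 two-colour arrays. The deposited values are log ratios per tile, taken as log2. Per the labels' protocols, amplified DNA was labelled directly with Cy3 and Cy5. How the arrays were scanned, corrected for background, normalized and averaged is not stated in these sources. The table has 21800 rows. A plate and well name stands on 21761, and 21285 of those hold values. The stretch had 1152 wells, 11 of them blank.

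Each replicate was centred on its median. Tiles were tested against 0 over the whole table with limma 3.58.1 in R 4.3.3 (lmFit, eBayes, two-sided, Benjamini-Hochberg, threshold 0.05). This step and the segmentation were tried on simulated data with independent noise. Here the replicates fell into pairs and neighbouring tiles were correlated. The trial therefore checks the code only, not the calls or segments reported. Segments used a penalty of 4 times the noise variance times the log of the number of wells. Blank wells were passed over in runs and segments. Tiles were named by rule: the highest and lowest of each plate, the edge tiles, the ends of the longest runs, the largest and smallest SD and the largest step; further tiles and windows were named after their values were seen. The plates and rules were chosen with earlier results of these data known. Python 3.11.15, numpy 2.4.6, pandas 2.3.3, scipy 1.17.1 and matplotlib 3.10.9 were used. Precision is limited by the 4 replicates; no intensities were analysed here. Alternatives are given in the closing section.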

Additional observations from a re-analysis of the deposited data

Results flagged for a closer look

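Among 95 levels and differences with 4 replicate values, 3 had a replicate whose gap to the nearest other exceeded the critical value of Dixon's test for 4 values, as a share of the range, where chance gives about 1 in 20. The median of TA56 had a ratio of 0.848, with replicate 3 at -0.59 and the others between -0.45 and -0.42. Tile TA63B11 had a ratio of 0.867, with replicate 4 at -3.58 and the others between -3.47 and -3.45. The segment TA57B07 to TA57C10 had a ratio of 0.941, with replicate 1 at -0.65 and the others between -0.93 and -0.91. Dixon's test looks for 1 value apart from 3 and cannot mark a division into 2 pairs such as that on TA62.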

How the results depend on the processing

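The random blocks for replicates 1 and 3, and 2 and 4, were added after the data were seen. As deposited, the stretch held 89 tiles called above in limma and 10 high tiles, its median was -1.52, and the sequence changed 18 times between high and low. Centred on the mode, which lay 0.68 to 0.98 above the replicate medians, these values were 83, 13, -1.77 and 18, with 732 low tiles. Both follow from the shift of 0. Over the array of 21285 tiles, limma called 8951 above in the main setting, 4108 as deposited and 3659 centred on the mode. At 1.5-fold or more in limma, 112 tiles of the stretch were above, and 5515 over the array. The shares of high and low tiles over the array are given for the main setting only. A limit of 1.5-fold gave 118 high tiles and 82 changes, and one of 3-fold 22 high and 265 low tiles. In column order there were 118 changes. The penalty moved the 40 segments to 77 and 21. Without one replicate, limma called 177 to 190 tiles above and 764 to 777 below, high tiles numbered 76 to 81 and low tiles 452 to 464, changes 54 to 58 and segments 35 to 40. The median then lay between -0.95 and -0.89, and TA64 exceeded TA51 by 1.80 to 2.04. Limma called 178 and 770 tiles with the second number of the sample titles as a block, and 169 and 749 with the random blocks. Over the array these were 8553 and 8559, and 8177 and 8189. Without one replicate, limma called 8506 to 8653 tiles of the array above and 8534 to 8679 below. All other counts in the stretch stayed within 1.5 times of those reported. None of the 35 named tiles changed sign in 7 alternatives. Many were named as the extreme tiles of a plate, so a change of sign was hardly open to them. Of the 245 values, 63 moved by at least the SD of the tile, 62 of them as deposited or centred on the mode. How far tiles stood above background cannot be said without intensities. No paired analysis was possible because all replicates belong to 1 group.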

Other observations

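The 11 wells without values were spread over 7 of the 12 plates. Of the wells D12, 3 of 12 were blank in the stretch, on TA56, TA58 and TA62, and 4 of 96 over all TA plates. Of the wells H12, 1 of 12 was blank in the stretch and 2 of 98 over all TA plates. Over the TA set, the stretch included, 278 of 9334 wells were blank, against 11 of 1152 in the stretch. D12 and H12 are 2 of the 96 well positions of a plate, and no test was made of them.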
